A study of Mus musculus with 12 samples.

Results

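Keratin genes encode the intermediate filament proteins of epithelial cells. A gene was taken as a keratin gene where RefSeq lists it as protein-coding and its symbol is Krt directly followed by a number, which gave 53 of 21900 protein-coding genes on the mm10 build. Of these, 6 were counted as simple-epithelial keratins (Krt7, Krt8, Krt18, Krt19, Krt20 and Krt23), 43 as skin keratins (20 of stratified epithelia, 8 of the inner root sheath of the hair follicle and 15 of hair), and 4 (Krt42, Krt88, Krt90 and Krt222) as neither. Krt75, of the companion layer next to that sheath, was counted with the inner root sheath. SEACR peaks that overlapped a keratin gene or the 1 kb on either side of it numbered 39 of 58548 for H3K4me3, 27 of 62547 for H3K27ac and 74 of 105301 for H3K27me3.

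A keratin filament is built from pairs of a type I and a type II chain. In mouse the type I genes lie in a cluster on chromosome 11 and the type II genes in a cluster on chromosome 15, at the edge of which lies Krt18, the only type I gene outside the first cluster. One-layered epithelia such as the gut lining carry the pair of Krt8 and Krt18 together with Krt19, and Krt20 marks differentiated cells of the villus. Stratified epithelia carry Krt5 and Krt14 in their basal layer and Krt1 and Krt10 above it, and hair follicles use keratins of their own.

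The libraries came from mouse intestinal organoids, 3-dimensional cultures grown in Matrigel from isolated crypts, that were given 25 µM AA, the abbreviation of the labels for what the series title calls dietary arachidonic acid, or vehicle for 6 days. CUT&RUN, a method that frees the DNA next to a chromatin mark with a nuclease tethered to an antibody, was run for H3K4me3 (active promoters), H3K27ac (active promoters and enhancers) and H3K27me3 (laid down by Polycomb repressive complex 2). There were 2 AA and 2 vehicle libraries for each of the 3 marks, 12 in all. The sample labels give no genotype, strain or age, while the series' design text names organoids without a prostaglandin receptor gene and a prostaglandin arm, so the genotype of these libraries is not known here. Whether the 2 libraries of a group are separate cultures is not stated, so the p-values cover only the scatter among these libraries, and that scatter may be technical.

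The score of a peak is its mean coverage per base, scaled per library by the authors. Raw coverage at the median peak was 1.37 and 1.46 in the AA libraries of H3K4me3 and 3.38 and 2.35 in the vehicle libraries, and 1.19 to 2.76 in the 8 libraries of the other marks, so a weak peak rests on few fragments. AA replicate 2 of H3K4me3 stood apart on the first principal component of all peaks, at 157.7 against -74.05 to -13.48 for the other libraries. The H3K4me3 values of the called peaks, of the simple keratins and of each peak whose call it changes are given also without it. A fit with a library left out leaves 1 library in a group, without scatter of its own, so its p-value is not given. The first component of H3K27ac put vehicle replicate 1 at 74.66 and the other libraries at -49.11 to -2.963. The first component of H3K27me3 put the AA libraries at -121.7 and -55.74 and the vehicle libraries at 32.44 and 145. The 2 libraries of a group agreed little in H3K27me3: over all peaks their Spearman correlation was 0.290 in AA and 0.194 in vehicle. It was 0.716 and 0.811 for H3K4me3, and 0.651 and 0.511 for H3K27ac. The intestinal label was met by its markers: 8 of 8 intestinal epithelium genes (among them Cdx2, Vil1 and Epcam) had H3K4me3 and H3K27ac peaks, with a median score at the highest peak of 1.005 and 0.432. Of the lists for other cell types, 7 of 12 cornified envelope and skin genes, 3 of 5 fibroblast genes, 1 of 4 blood genes and 1 of 2 endothelium genes had an H3K4me3 peak, with median scores of 0.197, 0.330, 0.0900 and 0.239. An H3K27ac peak was found at 6 of 12, 1 of 5, 0 of 4 and 1 of 2 of them, with a median score of 0.245 for the skin genes. Of all genes 74.0% had an H3K4me3 peak and 64.3% an H3K27ac peak. The skin gene Sbsn stood near the intestinal markers in H3K4me3, with means of 1.15 in AA and 0.933 in vehicle.

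The 300 bases around a start site (250 before, 50 after), from RefSeq on GRCm38.p6, the same build as mm10, were at hand for 36 of the 53 keratin genes. The sequences below are those of the genes on which the results turn: Krt7, the simple keratin with a called change, the pair Krt8 and Krt18, and for comparison Krt76 and Krt72, whose start windows lay under H3K27me3. Each is written 5' to 3' on the strand of the gene; capitals mark a match on either strand to TATAAA, to the GC box GGGCGG or to the AP-1 motif TGANTCA.

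Krt7: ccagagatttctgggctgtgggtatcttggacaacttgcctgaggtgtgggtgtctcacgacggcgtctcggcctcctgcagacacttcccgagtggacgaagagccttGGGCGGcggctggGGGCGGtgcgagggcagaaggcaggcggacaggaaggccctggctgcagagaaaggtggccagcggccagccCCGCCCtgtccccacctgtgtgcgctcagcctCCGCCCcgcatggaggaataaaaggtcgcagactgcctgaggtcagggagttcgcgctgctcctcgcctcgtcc
Krt8: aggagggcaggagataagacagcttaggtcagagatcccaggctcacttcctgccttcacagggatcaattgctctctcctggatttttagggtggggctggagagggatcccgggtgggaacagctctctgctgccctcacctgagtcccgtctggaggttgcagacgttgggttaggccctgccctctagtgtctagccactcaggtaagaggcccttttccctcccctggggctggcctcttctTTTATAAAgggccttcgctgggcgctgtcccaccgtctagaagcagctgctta
Krt18: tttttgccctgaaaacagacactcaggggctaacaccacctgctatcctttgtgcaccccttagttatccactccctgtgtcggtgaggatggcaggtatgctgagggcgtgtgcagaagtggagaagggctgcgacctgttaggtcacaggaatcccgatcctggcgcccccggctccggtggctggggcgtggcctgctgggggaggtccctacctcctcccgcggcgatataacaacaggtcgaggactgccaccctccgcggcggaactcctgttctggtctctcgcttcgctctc
Krt76: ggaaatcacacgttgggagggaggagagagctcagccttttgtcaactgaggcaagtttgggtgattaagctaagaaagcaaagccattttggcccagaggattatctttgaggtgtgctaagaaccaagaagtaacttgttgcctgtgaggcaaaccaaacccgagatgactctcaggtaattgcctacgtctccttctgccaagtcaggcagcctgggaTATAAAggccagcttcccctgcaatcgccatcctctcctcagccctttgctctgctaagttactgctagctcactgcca
Krt72: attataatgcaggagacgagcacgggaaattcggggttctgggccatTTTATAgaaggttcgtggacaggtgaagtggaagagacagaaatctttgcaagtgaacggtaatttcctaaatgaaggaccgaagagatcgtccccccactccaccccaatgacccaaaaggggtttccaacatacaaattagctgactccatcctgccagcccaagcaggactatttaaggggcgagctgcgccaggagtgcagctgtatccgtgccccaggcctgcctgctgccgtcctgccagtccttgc

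These windows lie at chr15:101412153-101412452 on the plus strand (Krt7), chr15:102004293-102004592 on the minus strand (Krt8), chr15:102027966-102028265 on the plus strand (Krt18), chr15:101892871-101893170 on the minus strand (Krt76) and chr15:101786471-101786770 on the minus strand (Krt72). The Krt7 window held 4 GC boxes and 21 CpG dinucleotides, and the Krt18 window 17 CpG, against a median of 7 over all 32851 windows. Krt8 had 2 overlapping matches to TATAAA, 1 on each strand. TATAAA was found in 2 of 5 simple-keratin windows, 16 of 30 skin-keratin windows, 7 of the 8 inner root sheath windows and 13.6% of all windows. GGGCGG was found in 1 of 5 simple-keratin windows, 1 of 30 skin-keratin windows and 35.7% of all windows, and TGANTCA in 0 of 5, 2 of 30 (both at Krt13) and 7.81%. The matches describe the letters of the windows only.

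The simple-epithelial keratins carried both marks of active genes, H3K4me3 and H3K27ac, and most skin keratins did not carry both. All 6 simple keratins had an H3K4me3 peak and all 6 an H3K27ac peak, while 20 of 43 skin keratins (46.5%) had H3K4me3 and 12 of 43 (27.9%) had H3K27ac, against 74.0% and 64.3% of the 21631 protein-coding genes on chromosomes that carry peaks. H3K27me3 ran the other way: 1 of 6 simple keratins and 34 of 43 skin keratins (79.1%) had a peak, against 50.6% of all genes. Each peak was scored in all 4 libraries of its mark, so these counts are not per group, and a gene without a peak is listed at 0 here although it may carry signal below the peak caller's limit.

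Signal per base of the gene and its 1 kb flanks put numbers to this. The median H3K4me3 signal of the simple keratins was 0.588 and 0.502 in the AA libraries and 0.417 and 0.418 in the vehicle libraries, and that of the skin keratins was 0 in each library. On the scale log2(signal + pseudocount), the median of the simple keratins lay above that of the skin keratins by 4.48 in AA and by 4.09 in vehicle for H3K4me3, and by 2.17 and 1.98 for H3K27ac; without AA replicate 2, the H3K4me3 difference in AA was 4.58. For H3K27me3 it was -0.92 in AA and -0.92 in vehicle. These differences compare genes within the same libraries, have no test, and shrink with a larger pseudocount: the skin median sits at the pseudocount for H3K4me3 and H3K27ac, and the simple median for H3K27me3.

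**Figure D1:**
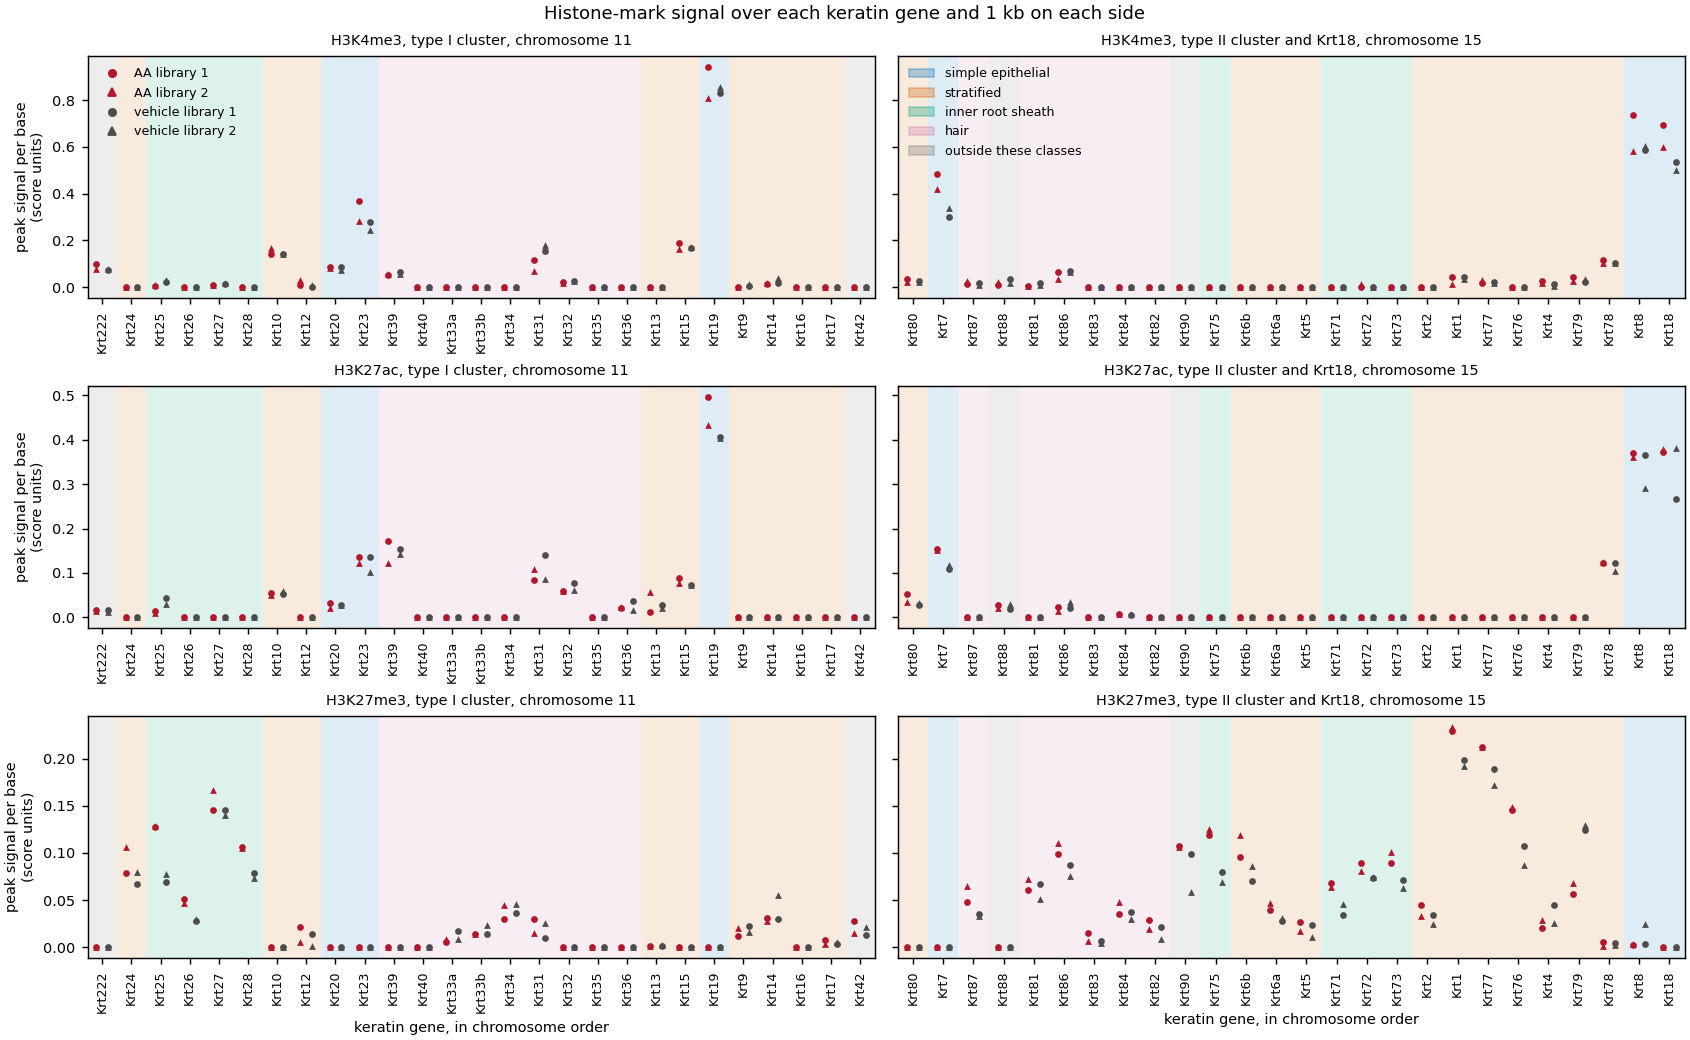
Peak signal per base over each keratin gene and 1 kb on each side (y axis, score units) for H3K4me3, H3K27ac and H3K27me3 (rows), with genes in chromosome order (x axis), AA libraries left of vehicle libraries and the background coloured by keratin class. The H3K4me3 and H3K27ac signal stands over the simple keratins and a few neighbours, and H3K27me3 over the inner root sheath keratins and the stretch from Krt1 to Krt79.

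Combinations of marks divided the classes further. Krt7, Krt18, Krt19, Krt20 and Krt23 had H3K4me3 and H3K27ac and no H3K27me3 peak. Krt8 had all 3 marks, but its H3K27me3 peak was weak, at 0.0217 and 0.0376 in the AA libraries and 0.0304 and 0.251 in the vehicle libraries, so that 1 vehicle library carried most of it. Among the skin keratins, 17 had H3K27me3 alone, including Krt5 of the basal layer, Krt6a, Krt6b and Krt17 of wounded and fast-growing epidermis, and Krt71 and Krt73 of the inner root sheath. A further 11 had H3K27me3 with H3K4me3, among them Krt1, Krt14 and Krt79, 4 had all 3 marks (Krt25, Krt31, Krt78 and Krt86), and 3 had none (Krt16, Krt35 and Krt40). Only 5 had H3K4me3 and H3K27ac without H3K27me3: Krt10, Krt15, Krt32, Krt39 and Krt80.

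Some of the active marks at skin keratins belonged to a neighbour. The highest H3K4me3 peak at Krt15, a keratin of basal and follicle stem cells, was the domain over Krt19, which spanned 25.2 kb and ranked 10 of 58548 peaks by length. Its H3K27ac peak was the same domain, 34.6 kb long and 12 of 62547. The highest H3K4me3 peak at Krt78 was likewise the domain over Krt8, 17.2 kb long and ranked 63. The highest H3K4me3 peak at Krt10 did not cover the start window of Krt10 and overlapped the other end of its annotated span. Start windows under a peak numbered 5 of 5 in simple keratins and 3 of 30 in skin keratins for H3K4me3 (Krt14, Krt32 and Krt39), against 49.7% of all windows, and 5 of 5 and 4 of 30 for H3K27ac, against 38.7%. H3K27me3 covered 0 of 5 simple-keratin windows and 13 of 30 skin-keratin windows (43.3%), against 20.3% of all.

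AA was then compared with vehicle, peak by peak, with the marks fitted apart. Of the 39 H3K4me3 peaks at keratin genes 2 were called (limma adjusted p under 0.05, Benjamini-Hochberg over all peaks of the mark), both higher in AA, against 2.92% of all peaks called in either direction and 1.54% called higher in AA. At an unadjusted p under 0.05 the counts were 6 of 39 and 16.2% of all peaks. The called peaks were those at Krt7 and at the edge of Krt222.

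Krt7, a type II keratin of ducts and glands, had the highest H3K4me3 score of all keratins. Its peak at chr15:101410164-101415973, over the start window printed above, scored 1.826 and 1.591 in the AA libraries, against 1.129 and 1.231 in the vehicle libraries. Both AA libraries lay above both vehicle libraries, with means of 1.71 ± 0.166 and 1.18 ± 0.0721 (SD, n = 2 libraries each). The change was 0.52 ± 0.12 on the log2(score + pseudocount) scale (SE, limma adjusted p = 0.00228). Without AA replicate 2 it was 0.62. Without vehicle replicate 1 or vehicle replicate 2 it was 0.46 or 0.58, and the call was lost. Quantile normalization gave 0.19 (limma adjusted p = 0.0614), which was not called.

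The level of the Krt7 peak bears on this value. It was higher than 99.8% of H3K4me3 peaks, and the tenth of peaks with the highest mean scores had a median change of 0.28, with 11% of them called, while the median over all peaks was -0.19. The rise at Krt7 was larger than the median of 0.28 of those highest peaks. Their mean scores began at 0.759, against 1.44 at Krt7, so they are not peaks of its level alone. No narrower set of peaks near the level of Krt7 was compared. Raw coverage over the peak was 16.8 and 15.7 in the AA libraries and 22.0 and 16.1 in the vehicle libraries, so the direction is that of the scaled scores; it was kept under median centring, at 0.74. The part of level and scaling in the result was not tested. H3K27ac at Krt7 scored 0.429 and 0.411 in the AA libraries and 0.263 and 0.323 in the vehicle libraries, a change of 0.44 ± 0.17 that was not called (adjusted p = 0.406).

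At the other simple keratins no peak was called in either mark with all libraries. The Krt8 domain scored 0.738 and 0.584 for H3K4me3 in the AA libraries, and 0.588 and 0.602 in the vehicle libraries. Krt18, the partner of Krt8, scored 0.693 and 0.598 in AA, and 0.534 and 0.500 in vehicle. Krt19 scored 0.941 and 0.810 in AA, and 0.830 and 0.856 in vehicle. The AA and vehicle libraries overlapped at Krt8 and Krt19 and not at Krt18, where the change was 0.31 ± 0.20 (adjusted p = 0.459). Krt23, a type I keratin, scored 1.023 and 0.788 in AA, and 0.756 and 0.673 in vehicle, a change of 0.32 ± 0.17 (adjusted p = 0.317). The Krt23 change was called under median centring, at 0.54 (limma adjusted p = 0.0199), and was 0.51 without AA replicate 2. Krt20 was the weakest, with 0.314 and 0.295 in AA and 0.321 and 0.248 in vehicle, and its libraries overlapped. Without AA replicate 2 the changes were 0.30 at Krt8, 0.41 at Krt18, 0.15 at Krt19 and 0.14 at Krt20, none of them called.

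**Figure D2:**
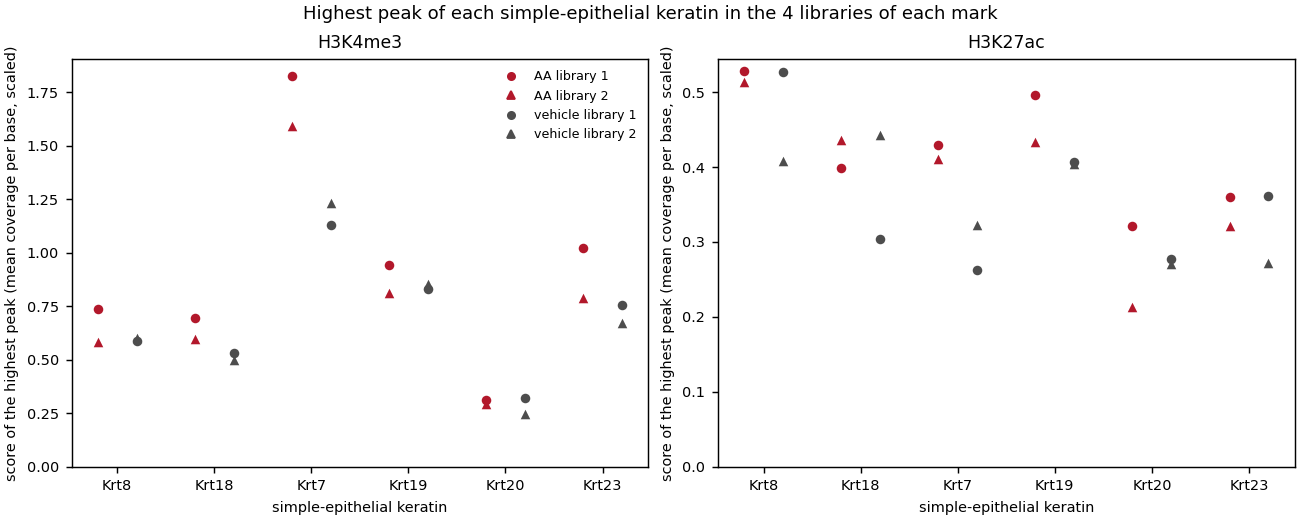
Score of the highest peak (y axis, scaled mean coverage per base) of each simple-epithelial keratin (x axis) for H3K4me3 (left) and H3K27ac (right), with AA libraries left of vehicle libraries. Krt7 stands highest in H3K4me3, at 1.591 and 1.826 in AA against 1.129 and 1.231 in vehicle, while Krt8 and Krt19 overlap between the groups.

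At the narrower MACS2 peaks, 9 of the 11 H3K4me3 peaks at simple keratins were higher in both AA libraries than in both vehicle libraries, against 33.1% of all MACS2 peaks of the mark, and 0 were lower. Of the 11, 3 were called, all higher in AA, against 5.22% of all MACS2 peaks called higher, and their median change was 0.33 against 0.05. Krt7 scored 3.098 and 2.740 in the AA libraries there, and 1.770 and 1.874 in the vehicle libraries, a change of 0.63 ± 0.14 (adjusted p = 0.00937). A Krt8 peak scored 2.497 and 1.736 in AA, and 1.167 and 1.468 in vehicle, a change of 0.61 ± 0.19 (adjusted p = 0.0473). A short Krt19 peak of 201 bp scored 2.665 and 2.687 in AA, and 1.520 and 1.415 in vehicle, a change of 0.80 ± 0.15 (adjusted p = 0.00290). These MACS2 values are from all libraries. Several of these peaks lie within 1 SEACR domain, so they share its cells and fragments, and the change over the whole Krt19 domain was 0.05 ± 0.16. At the SEACR peaks of simple keratins, 3 of 9 were higher in AA without overlap and 1 lower, against 18.3% and 30.5% of all peaks. The median change of these 9 was 0.10, against -0.19 over all SEACR peaks and 0.28 in the tenth with the highest mean scores. The part of level in the MACS2 values was not tested.

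The other call, at chr11:99227940-99232168, was not particular to a keratin. The peak overlaps Smarce1, a subunit of the SWI/SNF chromatin remodeller, and reaches into the flank of Krt222 by 408 bp. It scored 1.525 and 1.455 in the AA libraries, against 1.110 and 1.031 in the vehicle libraries, a change of 0.47 ± 0.13 (adjusted p = 0.0184). The libraries did not overlap, and without AA replicate 2 the change was 0.50, while the call was lost without either vehicle library.

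Of the 28 H3K4me3 peaks at skin keratins, the domains shared with Krt19 and Krt8 included, 0 were called (limma), against 2.92% of all peaks. An unadjusted p under 0.05 was found at 4 of the 28, against 16.2% of all peaks. Without overlap 6 were higher and 9 lower in AA, against 18.3% and 30.5% of all peaks. The median change of the 28 was 0.01 against -0.19. Leaving out AA replicate 2 altered the call at Krt25 and at a peak of Krt78, both lower in AA. Krt25 scored 0.0605 and 0.0933 in the AA libraries and 0.189 and 0.265 in the vehicle libraries. Its change was -1.54 without AA replicate 2, against -1.30 with all libraries (limma adjusted p = 0.114). The Krt78 peak scored 0.0393 and 0.132 in AA, and 0.241 and 0.167 in vehicle. Its change was -1.81 without AA replicate 2, against -1.17 with all libraries (limma adjusted p = 0.205). Without AA replicate 1 the Krt25 change was -1.07. At hair keratins 3 of 7 were lower in AA and 0 higher, for example at Krt31, with 0.227 and 0.138 in the AA libraries and 0.301 and 0.354 in the vehicle libraries, a change of -0.80 ± 0.33 (adjusted p = 0.171). The highest change without overlap was at Krt72, at 0.0415 and 0.333 in AA and 0.0120 and 0 in vehicle, which rests on AA replicate 2. The lowest was at Krt9, the keratin of palm and sole skin, at 0.0269 and 0 in AA and 0.0544 and 0.162 in vehicle.

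Among the weak H3K4me3 peaks at other stratified keratins, Krt4, of the oesophageal and oral lining, scored 0.194 and 0.142 in the AA libraries and 0.109 and 0.0312 in the vehicle libraries, a change of 1.14 ± 0.60 (adjusted p = 0.333). Krt14 of the basal layer scored 0.0510 and 0.0652 in AA, and 0.0630 and 0.135 in vehicle, and the libraries overlapped. Its partner Krt5 had no H3K4me3 or H3K27ac peak. The smaller peaks of simple keratins were not higher in AA: that at Krt23 scored 0.0483 and 0.0278 in AA, and 0.143 and 0.0818 in vehicle, a change of -1.10 ± 0.90 (adjusted p = 0.560).

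For H3K27ac, 0 of the 27 keratin peaks were called (limma), against 0.2% of all peaks, and 3 of 27 had an unadjusted p under 0.05, against 7.71%. Those were at Krt80, Krt25 and Krt7. Krt80, a type II keratin of many epithelia, scored 0.447 and 0.207 in the AA libraries and 0.116 and 0.169 in the vehicle libraries at its smaller peak, a change of 0.85 ± 0.25 (adjusted p = 0.138). Krt25, of the inner root sheath, scored 0.0895 and 0.0677 in AA, and 0.282 and 0.202 in vehicle, a change of -1.06 ± 0.37 (adjusted p = 0.296). At simple keratins 4 of 9 peaks were higher in AA without overlap and 0 lower, against 28.5% and 10.7% of all peaks, with a median change of 0.15 against 0.11. Krt19 scored 0.496 and 0.434 in the AA libraries and 0.406 and 0.404 in the vehicle libraries, a change of 0.17 ± 0.15 (adjusted p = 0.806). Krt8, the highest of the keratins in this mark, scored 0.528 and 0.514 in AA, and 0.527 and 0.408 in vehicle, and the libraries overlapped. At skin keratins 7 of 18 peaks were higher and 3 lower without overlap. At the hair keratins Krt32 and Krt39 the changes were -0.53 ± 0.32 and -0.35 ± 0.24 (adjusted p = 0.730 and 0.761), and at Krt13, of the oral lining, the change was 0.18 ± 0.30 (adjusted p = 0.885).

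**Figure D3:**
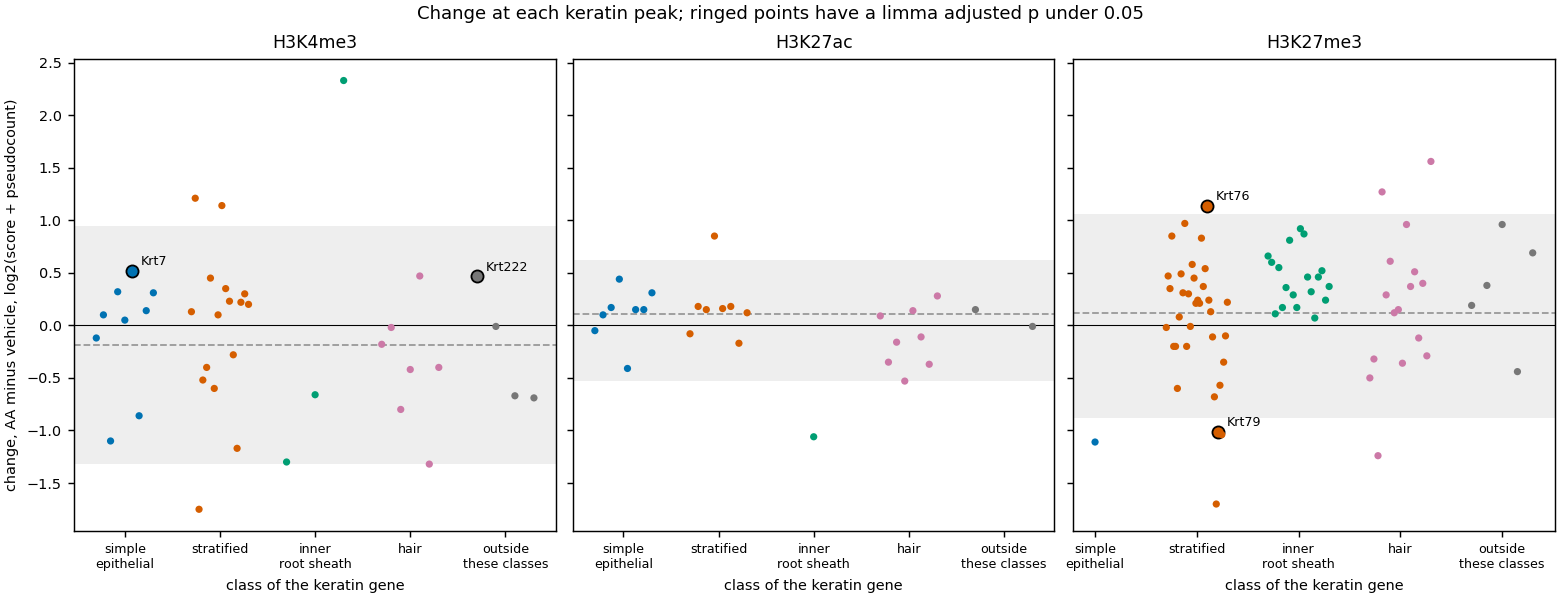
Change of each keratin peak, AA minus vehicle on the log2(score + pseudocount) scale (y axis), by keratin class (x axis) and mark (panels). The grey band spans the middle 90% of all peaks of the mark, the dashed line is their median (-0.19, 0.11 and 0.12), and ringed points are the called peaks at Krt7, Krt222, Krt76 and Krt79. A peak at genes of several classes is drawn once.

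H3K27me3 changed at 2 of the 74 keratin peaks, against 0.545% of all peaks called in either direction (0.498% higher and 0.0475% lower in AA), and 11 of 74 had an unadjusted p under 0.05, against 9.39%. The calls went in opposite directions at Krt76 and Krt79, which lie near each other in the type II cluster. Krt76, a keratin of the palate and oral lining, gained H3K27me3 in AA at chr15:101889256-101890360, inside the annotated gene, with scores of 0.379 and 0.238 in the AA libraries against 0.158 and 0.0878 in the vehicle libraries. The groups did not overlap, and the change was 1.14 ± 0.22 (adjusted p = 0.00262). This peak did not cover the start window of Krt76 printed above. The peak over that window scored 0.168 and 0.115 in AA, and 0.126 and 0.123 in vehicle. Its libraries overlapped, with a change of 0.13 ± 0.38 (limma adjusted p = 0.941). Krt79, a keratin of the hair canal and sebaceous duct in mouse, lost H3K27me3 at chr15:101929110-101931870, with 0.120 and 0.106 in the AA libraries against 0.242 and 0.278 in the vehicle libraries. The groups did not overlap there either, and the change was -1.01 ± 0.24 (adjusted p = 0.0235). Both calls were lost when any 1 of the 4 libraries was left out, with the changes between 0.81 and 1.47 at Krt76 and between -1.09 and -0.92 at Krt79.

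The peaks beside Krt79 had changes of the same sign as its called peak. From the end of Krt4 through Krt79 to the edge of Krt78, 6 neighbouring H3K27me3 peaks over 20.4 kb (chr15:101924587-101945034) each scored lower in both AA libraries than in both vehicle libraries, against 13.4% of all peaks lower without overlap. Their length-weighted mean score was 0.0761 and 0.0895 in the AA libraries, against 0.165 and 0.160 in the vehicle libraries. The changes were from -1.70 to -0.35, and the next peak on either side overlapped between the groups. On the other side of Krt4, the 9 peaks at Krt1, Krt77 and Krt76 all had a change above 0, from 0.13 to 1.14, as had 62078 of all 105301 peaks. The highest Krt1 peak turned to -0.01 under quantile normalization. Of the 9, 7 were higher in AA without overlap, against 26.3% of all peaks. Neighbouring peaks share cells and fragments of the same libraries, and the stretch was chosen after its values were seen.

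**Figure D4:**
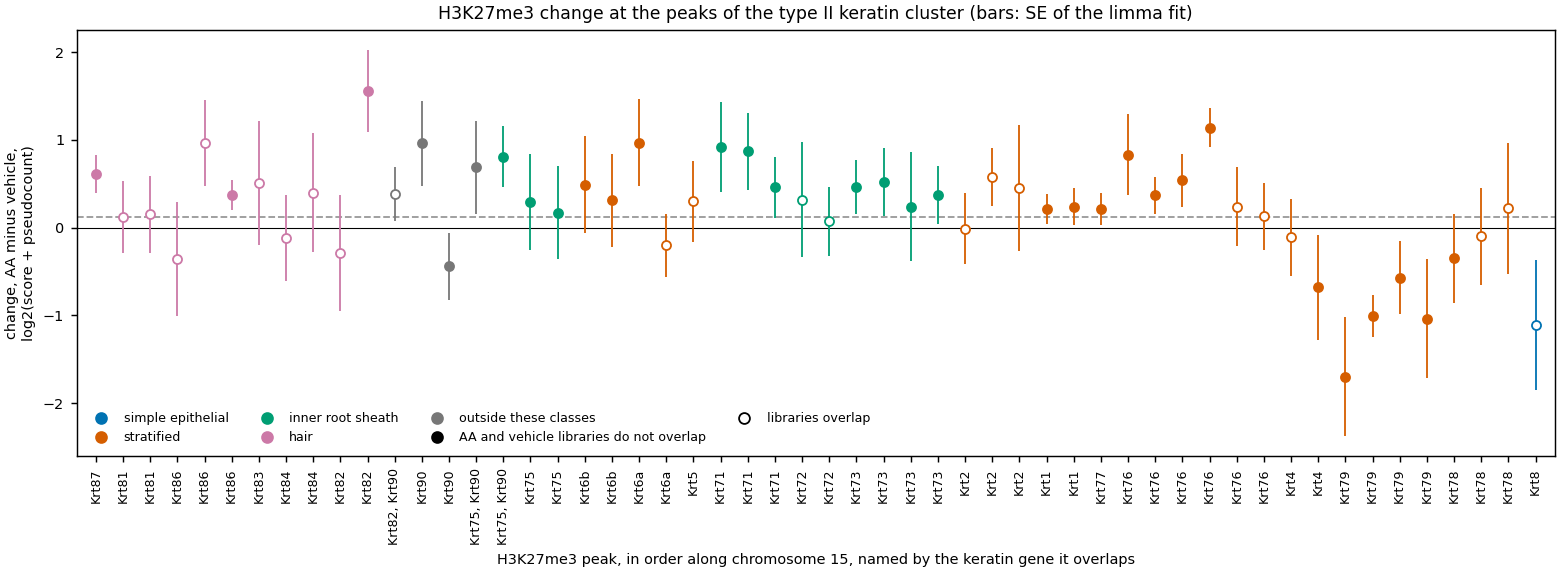
H3K27me3 change, AA minus vehicle on the log2(score + pseudocount) scale with the SE of the limma fit (y axis), at each peak of the type II cluster in chromosome order (x axis, named by keratin gene). Filled points have AA and vehicle libraries that do not overlap; the run from Krt4 to Krt78 lies between -1.70 and -0.35, beside points above 0 at Krt1, Krt77 and Krt76.

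The inner root sheath keratins, which form the sheath that guides the growing hair, carried the most H3K27me3 of the classes: 8 of 8 genes had a peak, and a median of 62.9% of the span was covered. Their median signal per base was 0.0978 and 0.103 in the AA libraries and 0.0721 and 0.0713 in the vehicle libraries. All 19 peaks had a change above 0 in the deposited scaling, and 17 of 19 after median centring or quantile normalization. Over all 105301 peaks, 62078 had a change above 0. The median of the 19 was 0.46 against 0.12 over all peaks, and 15 were higher in AA without overlap, against 26.3% of all peaks. Over all peaks the median change rose with level, from -0.13 in the tenth with the lowest mean scores to 0.23 in the highest. The part of level in the median of the 19 was not tested. Of the 19, 0 were called (limma), against 0.545% of all peaks, and 2 had an unadjusted p under 0.05, against 9.39%. Krt75, of the companion layer, held 4 of the 19 peaks, and 1 of these reached its window by only 90 bp. Per gene, Krt25 showed 0.127 and 0.128 in the AA libraries and 0.0687 and 0.0773 in the vehicle libraries. Krt27 was the exception, at 0.145 and 0.167 in AA and 0.145 and 0.140 in vehicle, where the libraries overlapped. The median stayed between 0.30 and 0.49 over the other scalings and with each library left out.

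**Figure D5:**
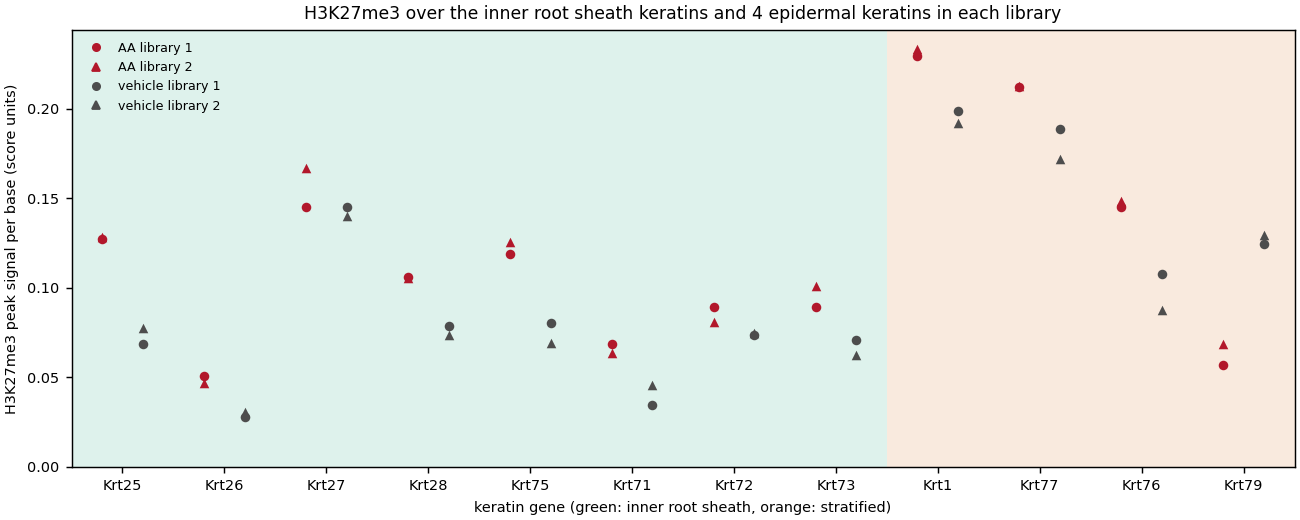
H3K27me3 peak signal per base over the gene and 1 kb on each side (y axis) for the inner root sheath keratins and 4 keratins of stratified epithelia (x axis), with AA libraries left of vehicle libraries. AA lies above vehicle in each gene shown except Krt27, where the libraries overlap, and Krt79, where it lies below.

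Per base of the gene and its flanks, H3K27me3 was highest over Krt1 and Krt77, a keratin of sweat ducts, while by the score of a single peak Krt86 and Krt1 were the highest. Krt1 scored 0.241 and 0.243 in the AA libraries and 0.208 and 0.202 in the vehicle libraries at its highest peak, a change of 0.21 ± 0.17 (adjusted p = 0.738). Krt86, a hair keratin, scored 0.236 and 0.281 in AA, and 0.180 and 0.204 in vehicle, a change of 0.37 ± 0.17 (adjusted p = 0.455). At hair keratins the changes lay on both sides of 0. Krt82 scored 0.295 and 0.168 in AA, and 0.0979 and 0.0249 in vehicle, a change of 1.56 ± 0.47 (adjusted p = 0.125), the highest change of the keratin peaks without overlap. Krt34 had a peak with a change of 1.27 ± 0.57 (adjusted p = 0.457) and another with -1.24 ± 0.60 (adjusted p = 0.504). Krt6a, of wounded epidermis, scored 0.135 and 0.202 in AA, and 0.0694 and 0.0671 in vehicle, a change of 0.97 ± 0.50 (adjusted p = 0.549). Krt5 scored 0.164 and 0.107 in AA, and 0.147 and 0.0690 in vehicle, and its libraries overlapped. None of these 4 genes passed the test.

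As a share of the whole peak signal of the mark, H3K27me3 on skin keratins made up 0.0671% and 0.0673% in the AA libraries and 0.0605% and 0.0566% in the vehicle libraries. For H3K4me3 the share on simple keratins was 0.0729% and 0.0688% in AA, and 0.0663% and 0.0686% in vehicle, and for H3K27ac 0.0808% and 0.0731%, and 0.0693% and 0.0680%. The exact two-sided permutation p was 0.333 for each of these 3 shares, the smallest that 2 libraries against 2 allow. The H3K27ac share on skin keratins was likewise higher in AA, at 0.0680% and 0.0614% against 0.0600% and 0.05925% in vehicle. Their H3K4me3 share was lower, at 0.0546% and 0.0533% in AA and 0.0552% and 0.0580% in vehicle. For H3K27me3 on simple keratins the AA and vehicle libraries overlapped (exact permutation p = 0.667).

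Genes that work with keratins were read at their highest peak, one per gene. For H3K4me3 the called members were all higher in AA, where 6.71% of all genes with a peak were called in either direction and 5.36% higher. They were 1 of 18 partners of the filaments (Ppl, 0.59 ± 0.17), 1 of 14 other intermediate filaments with a peak (Lmna, 0.68 ± 0.17) and 2 of 16 regulators of epithelial keratin programmes (Grhl3 and Ovol2). The median change was 0.34 for the partners, -0.37 for the other filaments and 0.26 for the regulators, against 0.19 over all genes. Grhl3, a transcription factor of the epidermal barrier, scored 0.833 and 0.708 in the AA libraries and 0.323 and 0.283 in the vehicle libraries. The groups lay far apart, with a change of 1.28 ± 0.22 (limma adjusted p = 8.02e-06) and of 1.39 without AA replicate 2. The changes of Ppl, Lmna and Ovol2 without that library were 0.81, 0.81 and 0.52. Ovol2, a repressor that holds the epithelial state, changed by 0.51 ± 0.15 (adjusted p = 0.0363). Without 1 or the other vehicle library all 4 calls were lost.

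In H3K27me3, Grhl3 scored 0.0748 and 0.110 in the AA libraries and 0.144 and 0.265 in the vehicle libraries, a negative change that was not called (-0.89 ± 0.37, adjusted p = 0.395). The H3K27me3 calls in these lists were all higher in AA, against 2.8% of all genes with a peak called in either direction and 2.53% higher: Dst among the 8 partners with a peak (0.64 ± 0.14), Vim among the 15 other filaments (0.51 ± 0.13) and Trp63 among the 11 regulators (2.34 ± 0.57). The Trp63 peak, at a master regulator of stratified epithelia, scored 0.424 and 0.168 in AA, and 0.0762 and 0 in vehicle. For H3K27ac 0 members of these lists were called (limma), against 0.359% of all genes, and 4 of 18 partners, 0 of 5 other filaments and 3 of 13 regulators had an unadjusted p under 0.05, against 12.8% of all genes. Among marker lists of other cell types, Trp63 in the skin list and Lyz2 in the blood list (0.219 and 0.346 in AA, and 0.117 and 0.0491 in vehicle) were called for H3K27me3. None of the 8 intestinal markers was called in any mark (limma), with 2 of 8 at an unadjusted p under 0.05 for H3K4me3, against 30.9% of all genes, and 0 for the other marks, against 12.8% for H3K27ac and 20.0% for H3K27me3. All 4 H3K27me3 calls of these lists were lost when any 1 library was left out. Their part in the keratin results was not tested.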

How the data were processed

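The deposited signal is 1 score per peak and library, for peaks called with SEACR and MACS2 on mm10, per the submitters' processing notes; the aligner, tool versions and scaling factors were not given in the sources used here. In each library 99.99% or more of the products of score and peak length (those under 1000 steps) came within 0.1 step of a whole multiple of 1 step, so the score behaves like average depth per base times a constant of the library, and score over step was read as raw coverage. Table rows called Control were matched to the vehicle samples, no other group of the mark being free.

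SEACR peaks were joined to RefSeq protein-coding genes (GRCm38.p6, the same build) extended by 1000 bp. Starts and ends are given 1-based. For AA minus vehicle, log2(score + pseudocount) was fitted over all peaks of a mark in limma 3.58.1 (R 4.3.3), using its trend and robust options. Adjusted p-values follow Benjamini and Hochberg, and peaks under 0.05 were called. The pseudocount, the 5th percentile of the positive scores, was 0.0253 for H3K4me3, 0.0693 for H3K27ac and 0.0329 for H3K27me3; a change on this scale understates that of weak peaks. Signal per base is the sum of score times overlap over the extended gene, divided by its length. Shares were compared with exact permutation tests (SciPy 1.17.1, Python 3.11.15). The fit was tested on simulated data.

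The peaks named are the highest peak of each simple keratin per mark, every called keratin peak, the 3 skin keratins with the highest scores per mark, per mark the 5 highest and the 5 lowest changes among keratin peaks with no overlap between AA and vehicle libraries, and up to 4 called genes of each other list; the text gives those that matter most. Members and lists were chosen with earlier results of these data known. Krt74, a transcribed pseudogene, and Krt85, not in the table used, are outside the 53 genes. Alternatives were other scalings, pseudocounts, peak sets, gene windows, overlaps and thresholds, a fit without trend and robust weights, a replicate block, and leaving out each library.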

Additional observations from a re-analysis of the deposited data

How the results depend on the processing

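With a library left out, between 0 and 5 H3K4me3 keratin peaks and 0 and 0 H3K27me3 keratin peaks were then called, against 2 and 2 with all libraries, and a lone library was assumed to vary like the other group. Of H3K4me3 calls, 5 were made without either AA library and 0 without either vehicle library. Quantile normalization left 0 H3K4me3 and 1 H3K27me3 call, a fit without trend and robust weights 0 and 0, a threshold of 0.01 left 1 and 1, median centring gave 3 and 0, MACS2 peaks 0 for H3K27me3, and asking for 50% of the peak inside the gene window 1 for H3K4me3. H3K27ac gave 0 keratin calls under every setting run. The labels share replicate numbers, and deviations of same-numbered libraries were uncorrelated (-0.00228, 0.00853 and 0.00247). At this low coverage such deviations may be mostly counting noise, so the values cannot tell whether the numbers pair the libraries. A replicate block kept 2 H3K4me3, 0 H3K27ac and 2 H3K27me3 calls, gave adjusted p = 5.29e-05 for Krt7, and changed no call of a named gene. The difference of the simple from the skin median in vehicle (4.09, 1.98 and -0.92 for H3K4me3, H3K27ac and H3K27me3) was 2.51, 1.38 and -0.50 with the larger pseudocount, 3.30, 1.88 and -1.01 with 5 kb windows, 1.27, 0 and 0 with MACS2 peaks and 4.74, 2.58 and -2.19 for the top peak; with 50% of the peak inside it was 3.63 and 0.70 for the first 2 marks. Without a vehicle library it lay from 1.91 to 1.93 for H3K27ac and from -0.88 to -0.84 for H3K27me3. MACS2 peaks, a choice added with the data in view for these counts, were found at 11 skin keratins for H3K4me3, 1 simple and 2 skin keratins for H3K27ac, and 0 simple and 1 skin keratin for H3K27me3, and 3 simple keratins kept an H3K27ac peak with 50% of it inside. The inner root sheath median was 0.30 under quantile normalization. Some changes that were not called turned sign. With a library left out, H3K4me3 went from -0.07 to 0.27 at Krt20, -0.06 to 0.15 at Krt19 and -0.03 to 0.30 at Krt8, and H3K27ac from -0.28 to 0.19 at Krt20, -0.07 to 0.26 at Krt23, -0.01 to 0.31 at Krt8, -0.08 to 0.38 at Krt18 and -0.44 to 0.12 at Krt31. Under quantile normalization H3K4me3 was -0.19 at Krt19, H3K27ac -0.04 at Krt23, -0.01 at Krt8 and -0.02 at the peak between Krt78 and Krt8, and H3K27me3 -0.01 at Krt1; the MACS2 H3K27ac peak at Krt18 gave -0.48. Where no value above shows it, the cause was not tested. Counted over named peaks and settings together, called changes stayed called in 60 cases and lost the call in 67, and none of these turned sign, while changes that were not called became called in 6 cases, all in H3K4me3 (at Krt23, Krt25, Krt78 and, with MACS2 peaks, Krt8). The coverage of 1.19 to 3.38 at the median peak limits what weak H3K27me3 peaks can show.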

Other observations

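One called peak lay inside the keratin clusters but outside the gene windows. It is an H3K27me3 peak at chr11:99401433-99402238, 4.0 kb from the annotated span of Krt10, with scores of 0.230 and 0.293 in the AA libraries and 0.0829 and 0 in the vehicle libraries, a change of 2.25 ± 0.56 (limma adjusted p = 0.0335). Krt10 itself had no H3K27me3 peak.

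Krt74, the transcribed pseudogene among the inner root sheath keratins, had 3 H3K27me3 peaks. The first scored 0.197 and 0.145 in the AA libraries and 0.0954 and 0.0961 in the vehicle libraries, without overlap, and was not called (limma adjusted p = 0.642). At the other peaks the libraries overlapped. They scored 0.0366 and 0.139 in AA against 0.0756 and 0.0798 in vehicle, and 0.215 and 0.112 against 0.113 and 0.0609. Their changes were -0.02 and 0.69, and neither was called (limma adjusted p = 0.997 and 0.683).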
